A study of Homo sapiens with 15 samples.

Results

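The protein 4.1 family is a set of adaptor proteins that tie membrane proteins to the spectrin and actin skeleton under the plasma membrane. Its members share a FERM domain, which binds the tails of membrane proteins, and the founding member, EPB41, was found in red blood cells, where it joins spectrin and actin to glycophorin C. EPB41L3 encodes the protein known as DAL-1, whose loss has been described in several human tumors, and EPB41L1 and EPB41L2 encode its neuronal and widely expressed relatives. The more distant members EPB41L4A, EPB41L4B and EPB41L5 keep the FERM domain, and EPB41L5 works in epithelial polarity and in the turnover of cell junctions during epithelial to mesenchymal transition.

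The family was taken as the 7 genes named EPB41, EPB41L1, EPB41L2, EPB41L3, EPB41L4A, EPB41L4B and EPB41L5, out of 60675 genes in the count table, and all 7 had enough counts to be tested. RNA was measured in HT1080 cells, a human fibrosarcoma cell line, in 15 libraries of 5 groups with 3 replicates each. The 6CD1m line carries the substitution H216A in the first catalytic domain of KDAC6 (gene HDAC6), the 6CD2m line carries H611A in the second catalytic domain, and both were treated with 1 μm Tubastatin A, a KDAC6 inhibitor, for 2 days. The 8CDm line carries H143A in KDAC8 (gene HDAC8) and was treated with 5 μm PCI-34051, a KDAC8 inhibitor, for 2 days. WT cells were kept for 14 days in 1 μm Tubastatin A or in 5 μm PCI-34051. Every group was therefore inhibitor-treated. Untreated cells are not analysed here. A mutant line differs from its WT group in genotype and in treatment time at once, and these cannot be told apart. Whether each line comes from 1 clone is not given in the sources used here.

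The family was chosen by the measured EPB41L3 level, which was already known to be far lower in treated 6CD2m cells than in Tubastatin A-treated WT cells and treated 8CDm cells. Its values are given as a description, without a test, and it is left out of every count of members called. The other 6 members were tested in the fit of all 19535 genes that passed the filter on low counts, with edgeR's quasi-likelihood test, Benjamini-Hochberg adjustment and a false discovery rate of 0.001.

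Levels are given as CPM, the counts of a gene scaled to the size of its library. Library totals ran from 10932455 to 19983710 counts. Defining markers of mesenchymal cells were high, with VIM between 2809 and 4887 CPM, although S100A4 did not exceed 0.837 CPM. The 6 summed mesenchymal markers were lowest in 6CD2m cells, at 5021 to 5683 CPM against 5832 to 9516 CPM in the other groups, and FN1, fibronectin, had means of 425 CPM in 6CD2m, 3023 CPM in 8CDm and 1205 to 1414 CPM in the other groups. Of the markers of other cell types, EPCAM, PTPRC and HBB were at or near 0 in all libraries, KRT18 was at 175 to 255 CPM and CD68 at 19.2 to 114 CPM. The summed endothelial markers were at 2.84 to 3.49 CPM in 6CD2m cells and 2.76 to 3.28 CPM in 8CDm cells, and lower elsewhere, with 0.491 to 0.842 CPM in 6CD1m cells. The part of these markers in the results was not tested. HDAC6 was at 12.4 to 34.2 CPM and HDAC8 at 12.6 to 19.8 CPM, which checks no label because the lines carry missense mutations. Mean HDAC6 was lowest in 6CD1m cells, at 13.1 CPM, against 24.4 CPM in 6CD2m and 19.3 CPM in 8CDm cells. It was 25.7 CPM in WT cells on Tubastatin A and 30.5 CPM in those on PCI-34051.

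EPB41L3 (ENSG00000082397) lies on the minus strand of chromosome 18 (GRCh38, GENCODE 29, 5392381 to 5630700), and RefSeq (GRCh38.p14) gives it 4 starts. EPB41L5 (ENSG00000115109) lies on the plus strand of chromosome 2 (120013005 to 120179119) and has 1 start. Both stretches printed here lie just before a start, because EPB41L3 and EPB41L5 had the largest differences of the family between groups. Each reads 5′ to 3′ along the gene, with CG dinucleotides in capitals.
EPB41L3, first start, chr18:5628992-5629241, minus strand: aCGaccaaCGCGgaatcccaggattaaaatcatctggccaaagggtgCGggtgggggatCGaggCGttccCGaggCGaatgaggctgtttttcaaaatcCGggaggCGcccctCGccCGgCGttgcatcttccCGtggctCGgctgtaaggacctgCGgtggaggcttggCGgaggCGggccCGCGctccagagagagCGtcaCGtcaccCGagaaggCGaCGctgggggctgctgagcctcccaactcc
EPB41L5, chr2:120012827-120013004, plus strand: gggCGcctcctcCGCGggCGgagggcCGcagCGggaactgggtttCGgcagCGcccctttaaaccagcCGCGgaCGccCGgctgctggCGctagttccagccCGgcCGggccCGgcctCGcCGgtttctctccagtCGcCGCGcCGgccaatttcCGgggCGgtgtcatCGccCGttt
The EPB41L5 stretch leaves out the last 72 bases of its window, which GENCODE 29 places in an exon. The EPB41L3 stretch lies before the first RefSeq start but within the GENCODE 29 gene, whose 5′ end is at 5630700. It overlaps no GENCODE 29 exon.

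In windows of 250 bases before the start, EPB41L3 held 25, 23, 4 and 2 CG dinucleotides at its 4 starts in order along the gene, and EPB41L5 held 33. The median of 35116 RefSeq windows of that length was 11. The GC box GGGCGG, searched on both strands, was present in 42.6% of all windows. It occurred 5 times before EPB41L5 and once, before the second start, in the EPB41L3 windows. GENCODE 29 places 0, 250, 132 and 44 bases of the EPB41L3 windows, in that order, in exons of the gene. These counts therefore cover exon sequence as well. TATAAA, present in 10.7% of windows on either strand, was in none of these 5 windows. The E-box CACGTG, present in 6.34% of windows, occurred before the fourth EPB41L3 start alone. The counts are per gene, so they do not say which EPB41L3 start was in use.

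EPB41L3 RNA was almost absent from treated 6CD2m cells and abundant in every other group. The 6CD2m libraries held 5, 4 and 4 counts, or 0.296, 0.203 and 0.222 CPM. Their 13 counts have an exact 95% Poisson interval of 6.92 to 22.2, which covers counting error only.

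WT cells on Tubastatin A had 250, 187 and 201 CPM, and treated 8CDm cells had 193, 202 and 205 CPM. WT cells on PCI-34051 had 176, 123 and 126 CPM. The 6CD1m libraries, which carry a mutation in the same enzyme and received the same treatment as 6CD2m, had 82.3, 106 and 128 CPM. All 12 libraries outside 6CD2m thus lay above 80 CPM, while none in 6CD2m reached 0.3 CPM.

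In order of mean level, WT cells on Tubastatin A (212 ± 33.0 CPM, SD, n = 3) and 8CDm cells (199.9 ± 6.51 CPM) overlapped. WT cells on PCI-34051 (142 ± 30.1 CPM) lay below both without overlap, and they overlapped with 6CD1m cells (105 ± 22.9 CPM). The 6CD2m mean of 0.240 ± 0.0492 CPM was apart from all of them. The mean of WT cells on Tubastatin A was 884-fold that of 6CD2m cells (95% counting interval 517 to 1660), and the mean of 6CD1m cells was 438-fold that of 6CD2m cells (256 to 823). On the log2 scale the fitted difference was −9.76 from WT cells on Tubastatin A, −8.75 from 6CD1m cells and −9.67 from 8CDm cells. 6CD1m cells differed from WT cells on Tubastatin A by −1.01, 8CDm cells from WT cells on PCI-34051 by 0.50, and WT cells on Tubastatin A from those on PCI-34051 by 0.59. These comparisons share groups and are not independent of each other.

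**Figure D1:**
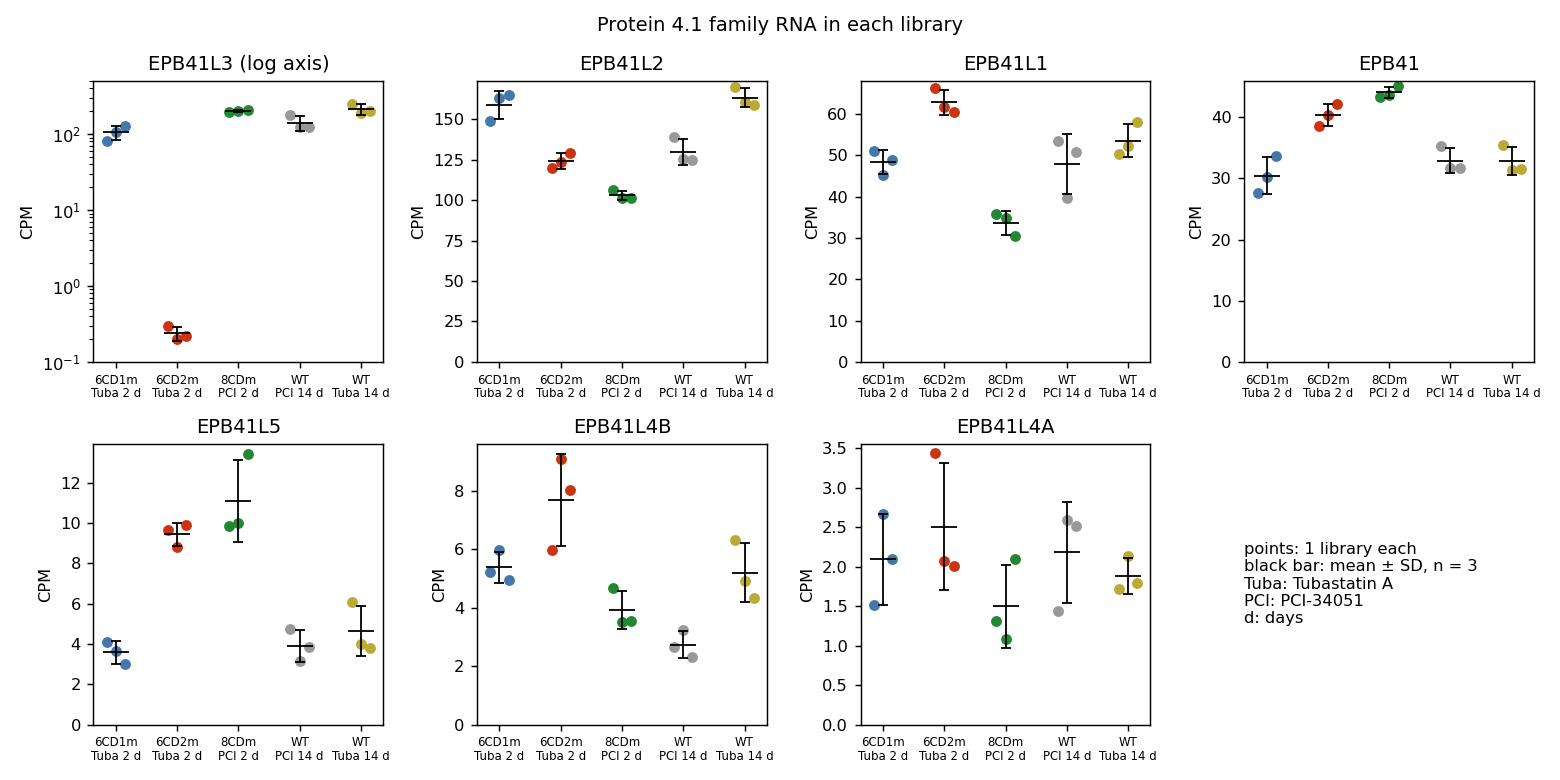
CPM of the 7 protein 4.1 family genes in each of 15 libraries. Each panel is 1 gene, points are libraries, and the black bar is the mean ± SD (n = 3). The EPB41L3 axis is logarithmic, where the 6CD2m libraries sit between 0.203 and 0.296 CPM and all others above 80 CPM. On the linear axes of the other members every group stays well above 0.

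To compare levels between genes, CPM was divided by exon length in kb. EPB41L3 and EPB41L2 had the highest levels per kb in every group but 6CD2m. EPB41L3 led in WT cells on Tubastatin A (34.9 ± 5.42 CPM per kb), in 8CDm cells (32.8 ± 1.07) and in WT cells on PCI-34051 (23.2 ± 4.94). In 6CD1m cells EPB41L2 had 21.5 ± 1.18 and EPB41L3 17.3 ± 3.75 CPM per kb.

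In 6CD2m cells EPB41L3 was the lowest of the 7, at 0.0395 ± 0.00808 CPM per kb, and EPB41L2 led with 16.8 ± 0.652. EPB41L1 and EPB41 came next in every group, EPB41L1 at group means between 4.88 and 9.10 CPM per kb and EPB41 between 2.77 and 4.01. EPB41L5, EPB41L4B and EPB41L4A stayed between 0.318 and 1.36 CPM per kb. EPB41L3 made up 47.6 to 53.7% of the family's summed level per kb in WT cells on Tubastatin A, 55.3 to 57.7% in 8CDm cells, 42.1 to 48.3% in WT cells on PCI-34051 and 30.0 to 38.3% in 6CD1m cells. In 6CD2m cells it made up 0.104 to 0.152%.

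The family's summed level was 32.0 to 32.8 CPM per kb in 6CD2m cells and 64.4 to 76.4 in WT cells on Tubastatin A. Without EPB41L3 the sums were 31.9 to 32.7 and 33.7 to 35.4 CPM per kb. The difference in the sum was thus nearly all EPB41L3, and the other members together did not lie above their level in WT cells.

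**Figure D2:**
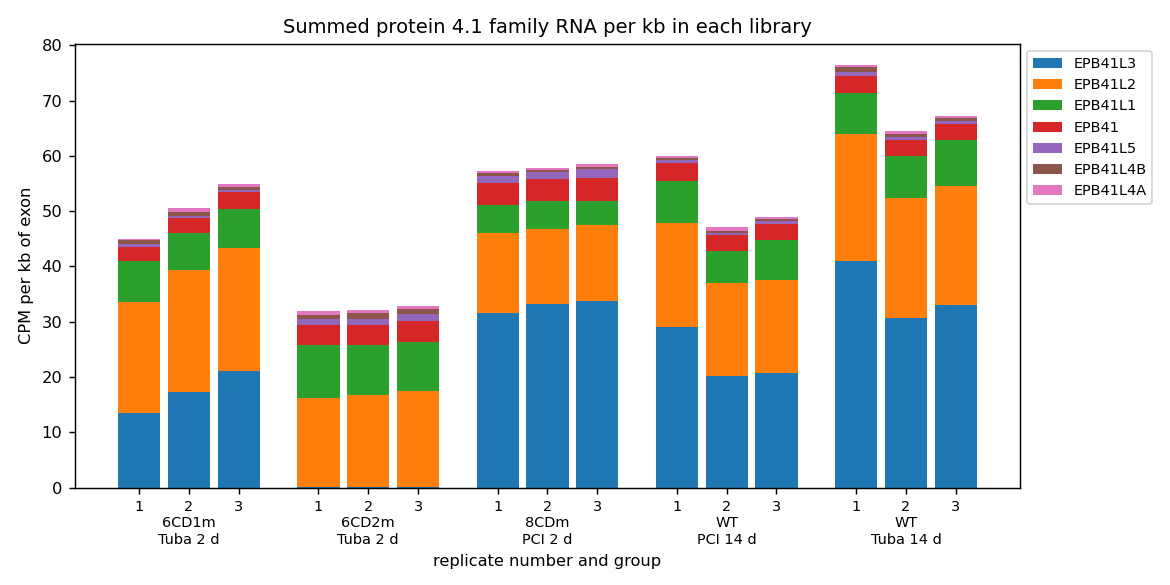
Summed level of the 7 family genes in each library, in CPM per kb of exon, with each gene's part as a stacked block. Bars are single libraries, numbered by replicate within each group. The EPB41L3 block is not visible in the 3 6CD2m libraries, where it is at most 0.152% of the sum, and it is the largest block in 8CDm cells, at 55.3 to 57.7%.

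Among the 4 closest members, EPB41L2 (ENSG00000079819, chromosome 6, 130839347 to 131063322) encodes the widely expressed protein 4.1G and was the most abundant of the 6 members tested. It had 120, 124 and 129 CPM in 6CD2m cells against 170, 161 and 159 CPM in WT cells on Tubastatin A. The groups did not overlap, and the log2 difference of −0.40 (SE 0.08) did not pass the threshold (edgeR adjusted p = 0.0012). The 6CD1m libraries, with 149, 163 and 165 CPM, overlapped with those of WT cells (log2 difference −0.04, 95% interval −0.21 to 0.13).

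EPB41L2 was lowest in 8CDm cells, with 106, 101 and 101 CPM against 139, 125 and 125 CPM in WT cells on PCI-34051. This log2 difference of −0.33 was at an adjusted p of 0.0041 in edgeR's quasi-likelihood test. It passed in 5 of 14 alternative settings, and with offsets for the GC content of genes it was −0.56 (edgeR adjusted p = 1.1e-05). EPB41L2 lies on chromosome 6, where the median of 721 protein-coding genes tested in that comparison was −0.34. The part of that shift in the EPB41L2 value was not tested.

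EPB41L1 (ENSG00000088367, chromosome 20, 36091504 to 36232799) encodes the neuronal protein 4.1N and was highest where EPB41L3 was lowest. The 6CD2m libraries had 66.2, 61.8 and 60.5 CPM, above every library of the other groups. WT cells on Tubastatin A had 50.4, 52.3 and 58.1 CPM, 6CD1m cells 51.1, 45.3 and 48.9, and WT cells on PCI-34051 53.4, 39.6 and 50.8. The 8CDm libraries were the lowest, at 35.9, 34.8 and 30.4 CPM.

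EPB41L1 was thus higher in 6CD2m than in 8CDm cells by 0.90 on the log2 scale (SE 0.11, edgeR adjusted p = 2.6e-05). It was the 1 of 6 members called in that comparison of lines and inhibitors, where 9.96% of all genes were called. Neither line passed against its own WT group: the log2 difference was 0.23 in 6CD2m cells (adjusted p = 0.14) and −0.51 in 8CDm cells (edgeR adjusted p = 0.0031). With GC offsets these were 0.37 and −0.33, and neither passed. The difference between these 2 differences was 0.74 (SE 0.16), which did not pass 0.001 either (edgeR adjusted p = 0.0044), in a contrast where 5.16% of all genes passed.

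EPB41 (ENSG00000159023, chromosome 1, 28887091 to 29120046) encodes the red cell protein 4.1R, which other cells also make. It had 38.6, 40.4 and 42.2 CPM in 6CD2m cells and 43.4, 43.7 and 45.1 CPM in 8CDm cells. The other 9 libraries lay between 27.6 and 35.4 CPM, below all 6 of these. The log2 differences from WT cells were 0.30 in 6CD2m (edgeR adjusted p = 0.023) and 0.42 in 8CDm cells (edgeR adjusted p = 0.0031), and neither passed. With GC offsets the 8CDm value was 0.18 (edgeR adjusted p = 0.045).

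EPB41L5, the polarity and junction member, was the only one to differ from its WT group past the threshold. It had 9.85, 10.0 and 13.4 CPM in 8CDm cells and 4.75, 3.16 and 3.86 CPM in WT cells on PCI-34051. The groups were far apart, with a log2 difference of 1.49 (SE 0.21, edgeR adjusted p = 8.5e-05). This was the 1 of 6 members called in 8CDm against WT cells, beside 11% of all genes. A fit of those 6 libraries alone gave an edgeR adjusted p of 0.0011. With GC offsets the log2 difference was smaller, at 1.23 (edgeR adjusted p = 0.0002), and the call was kept.

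In 6CD2m cells EPB41L5 had 9.65, 8.81 and 9.90 CPM, while 6CD1m cells had 4.13, 3.65 and 3.00 CPM. The log2 difference between these KDAC6 mutant lines was 1.40 (SE 0.22, edgeR adjusted p = 0.00016), again the 1 of 6 members called, beside 13.2% of all genes. With GC offsets the log2 difference was smaller, at 1.16 (edgeR adjusted p = 0.00032), and the call was kept. Without 6CD2m replicate 3 the log2 difference was 1.37 and the edgeR adjusted p, 0.0010, was no longer below the threshold. With any 1 of the other 5 libraries of these lines left out, the call was kept, at edgeR adjusted p between 0.00033 and 0.00097.

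WT cells on Tubastatin A had 6.08, 4.02 and 3.81 CPM of EPB41L5, below all 6CD2m libraries. That log2 difference of 1.02 (SE 0.21) narrowly missed the threshold (edgeR adjusted p = 0.0016), and it passed in 6 of 14 alternative settings. Without WT Tubastatin A replicate 1 it was 1.31, past the threshold (edgeR adjusted p = 0.00042). The 6CD2m and 8CDm libraries overlapped (log2 difference −0.23, 95% interval −0.66 to 0.20). The 6 libraries of 6CD2m and 8CDm cells lay between 8.81 and 13.4 CPM and the other 9 between 3.00 and 6.08 CPM, the same split as for EPB41.

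EPB41L4B (ENSG00000095203, chromosome 9, 109171975 to 109320964) was lowest in WT cells on PCI-34051, with 2.67, 3.22 and 2.32 CPM. WT cells on Tubastatin A had 6.30, 4.93 and 4.33 CPM, without overlap. The log2 difference of 0.92 (SE 0.22) did not pass (edgeR adjusted p = 0.019). It was highest in 6CD2m cells, with 5.98, 9.07 and 8.01 CPM, against 4.67, 3.52 and 3.54 CPM in 8CDm cells, a log2 difference of 0.98 (edgeR adjusted p = 0.0025).

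EPB41L4A (ENSG00000129595, chromosome 5, 112142441 to 112419316) had the lowest CPM of the 6 members tested, at 1.08 to 3.43 CPM over all 15 libraries. Its 5 groups overlapped in every one of the 6 comparisons, and its log2 differences ran from −0.53 to 0.74, with 95% intervals as wide as −1.26 to 0.19. None of these differences passed the test, and counting error and replicate spread were not separated. EPB41L4A-AS1, a gene on the opposite strand within the EPB41L4A locus (chromosome 5, 112160526 to 112164276), had group means of 25.5 to 35.4 CPM and was not called in any comparison, with its lowest edgeR adjusted p at 0.058. The use of strand in the counting is not given in the sources used here, so reads of this pair may be mixed where they overlap.

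**Figure D3:**
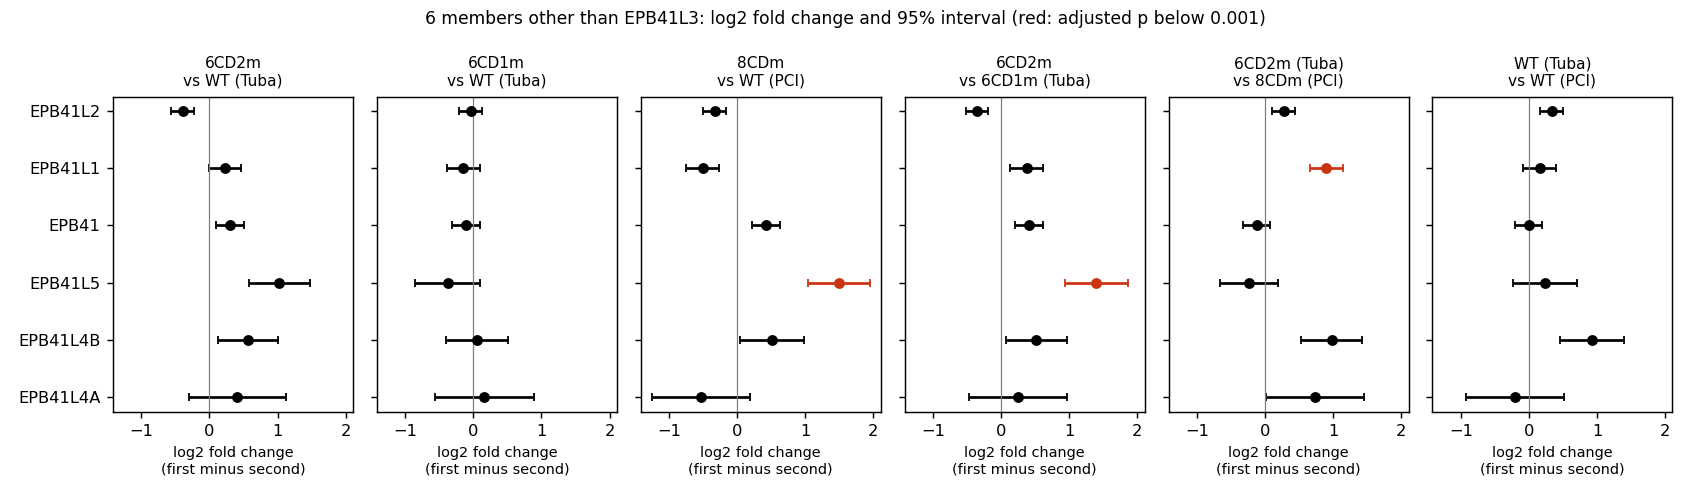
Log2 fold change (first minus second group) of the 6 members other than EPB41L3 in 6 comparisons, each a panel. Points are fitted values, bars are 95% intervals, and red marks an adjusted p below 0.001. The red points are EPB41L5 at 1.49 in 8CDm against WT cells and at 1.40 in 6CD2m against 6CD1m cells, and EPB41L1 at 0.90 in 6CD2m against 8CDm cells.

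Counted over the 6 members, 0 were called in 6CD2m against WT cells on Tubastatin A with edgeR, where 11.8% of all genes were called. At an unadjusted p under 0.05 there were 4 (42.3% of all genes), and DESeq2 called 2, EPB41L2 and EPB41L5 (18.6% of all genes). In 6CD1m against WT cells edgeR called 0 of 6, beside 0.793% of all genes. An unadjusted p under 0.05 (32% of all genes) and DESeq2 (3.15%) also gave 0 there. Between WT cells on the 2 inhibitors edgeR called 0 of 6, beside 0.42% of all genes. There were 2 at an unadjusted p under 0.05 (30% of all genes) and 1, EPB41L2, by DESeq2 (3.61%).

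Libraries of the 2 groups did not overlap for 4 members in 6CD2m against WT cells on Tubastatin A, where 50% of all genes were apart. The same held for 0 members in 6CD1m against WT cells (31% of all genes), 5 in 8CDm against WT cells (48.1%) and 5 in 6CD2m against 6CD1m cells (51.7%). It held for 4 in 6CD2m against 8CDm cells (51.6%) and 2 between WT groups (25.9%).

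With DESeq2 4 members were called in 8CDm against WT cells (19.7% of all genes), 3 in 6CD2m against 6CD1m cells (21.9%) and 3 in 6CD2m against 8CDm cells (15.9%). At edgeR's adjusted p under 0.05, 4 members passed in 6CD2m against WT cells (32.8% of all genes), 0 in 6CD1m (9.4%) and 4 in 8CDm (36.1%) against their WT groups. At the same level 4 passed in 6CD2m against 6CD1m cells (40.3%), 3 in 6CD2m against 8CDm cells (26.5%) and 2 between the WT groups (9.48%). No test was made of the 6 members against these shares.

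Across the 15 libraries, log2 levels of EPB41 and EPB41L5 had a Pearson correlation of 0.912, those of EPB41 and EPB41L2 −0.750, and those of EPB41L2 and EPB41L5 −0.737. EPB41L3 was at −0.617 with EPB41L1 and −0.659 with EPB41L4B. These values describe 5 groups of 3 libraries that share line, treatment and depth, and carry no p.

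The genes most like EPB41L3 over the 15 libraries, among 13925 genes with a mean log2 CPM of at least 1, also had their lowest level in 6CD2m cells. FLNC, which encodes the actin cross-linker filamin C, had a correlation of 0.994 and group means of 0.374 CPM in 6CD2m cells and 207 to 299 CPM elsewhere. TEX14 (0.993) was at 0.684 CPM against 7.95 to 9.99 CPM. MYO10, an unconventional myosin of filopodia, had a correlation of 0.992 and kept 195 CPM in 6CD2m cells, against 437 CPM in WT cells on Tubastatin A.

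CYB5A and SERPINB5, with correlations of 0.990 and 0.987, lie like EPB41L3 on chromosome 18. Both were at 0 in all 6CD2m libraries, with means elsewhere of 4.73 to 7.87 CPM for CYB5A, which encodes a cytochrome b5, and 7.38 to 18.2 CPM for SERPINB5, which encodes the serpin maspin. A single group at or near 0 sets these correlations.

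**Figure D4:**
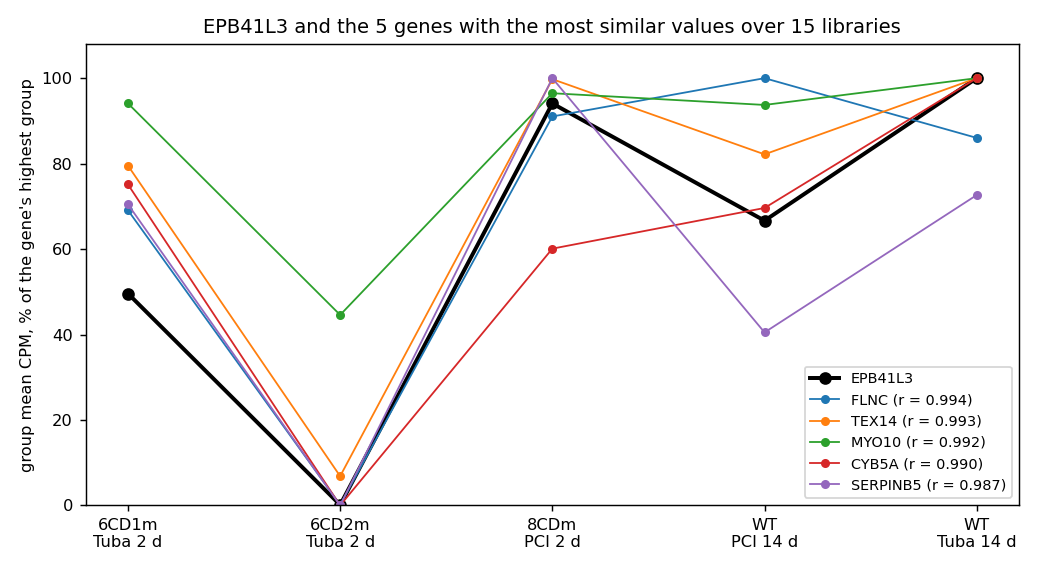
Group means of EPB41L3 and of the 5 genes with the highest correlation with it over 15 libraries, each as a percent of that gene's highest group. Lines join the 5 groups as a guide to the eye. All 6 genes have their lowest mean in 6CD2m cells, where MYO10 alone keeps 195 CPM of its highest 437 CPM.

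For the other members with a mean above 10 CPM in at least 1 group, the nearest patterns belonged to genes outside the family. EPB41 was followed most closely by RUFY2 (0.984) and by TRPM7 (0.983), a channel kinase with 133 CPM in 6CD2m, 142 CPM in 8CDm and 87.0 to 97.0 CPM elsewhere. EPB41L5 was followed by TUBA3E (0.964) and PDCD4 (0.961). EPB41L1 was followed by CGNL1 (0.927), a junction protein at 29.1 CPM in 6CD2m and 3.62 CPM in 8CDm cells, and MAP1A (0.921). For EPB41L2 the closest were the DNA polymerase alpha subunit gene POLA2 (0.979) and the histone gene HIST1H3H (0.977).

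No gene tested around EPB41L3 on chromosome 18 differed by as much in the same direction. Of 10 other protein-coding genes that reach within 2 Mb of either end of EPB41L3, 6 were tested, and DLGAP1, C18orf42, TMEM200C and LRRC30 had means of at most 0.136 CPM in every group. L3MBTL4, which encodes a relative of a Drosophila tumor suppressor and starts 0.785 Mb away, was higher in 6CD2m cells. It had 7.89 ± 0.761 CPM there against 0.536 ± 0.185 CPM in WT cells on Tubastatin A, a log2 difference of 3.87 (edgeR adjusted p = 2.5e-06). It was also higher in 6CD2m than in 6CD1m cells, by 3.65, and than in 8CDm cells, by 4.14.

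PTPRM, a receptor phosphatase gene that starts 1.94 Mb away, fell by 0.61 in 6CD2m against WT cells on Tubastatin A (edgeR adjusted p = 2.9e-05). TGIF1, ZBTB14, ARHGAP28 and LAMA1 had log2 differences between −0.35 and −0.49 in that comparison, none of which passed. LAMA1, a laminin chain gene, was lower in 6CD1m than in WT cells on Tubastatin A (−0.92, edgeR adjusted p = 4.7e-05). It was also lower in 8CDm than in WT cells on PCI-34051 (−0.56, edgeR adjusted p = 0.00045). LAMA1 was higher in 6CD2m than in 6CD1m cells, by 0.54, and than in 8CDm cells, by 0.65. The edgeR adjusted p were 0.00048 and 0.00012. PTPRM was lower in 6CD2m than in 8CDm cells (−0.82, edgeR adjusted p = 1.5e-06).

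By their median, the genes of chromosome 18 were lower in 6CD2m cells. Over 191 protein-coding genes of chromosome 18 tested, the median log2 difference of 6CD2m from WT cells on Tubastatin A was −0.79, and 50.8% of them were called lower. The median was −0.33 in 6CD1m and 0.12 in 8CDm cells against their WT groups. EPB41L3, at −9.76, lay far below the 6CD2m median of −0.79, and the 6 neighbours tested lay above it, between −0.61 and 3.87. The part of the chromosome's shift in these values was not tested.

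**Figure D5:**
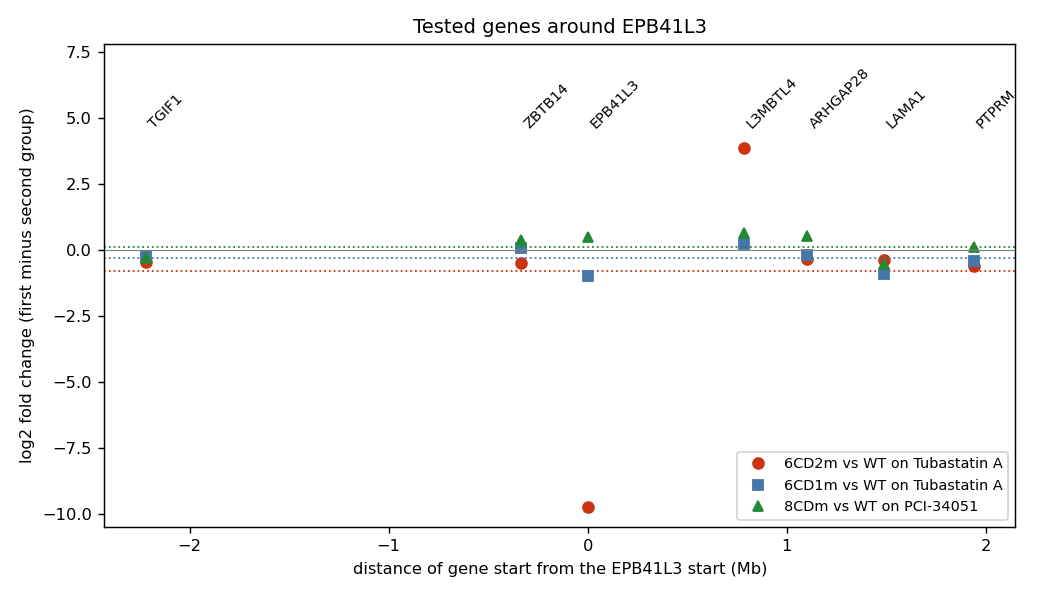
Log2 fold change of EPB41L3 and of the 6 genes tested that reach within 2 Mb of either end of it, by distance of the gene's start from the EPB41L3 start in Mb (−2.22 for TGIF1). Red circles are 6CD2m against WT cells on Tubastatin A, blue squares 6CD1m against the same WT cells, and green triangles 8CDm against PCI-34051-treated WT cells. Dotted lines are the chromosome 18 medians of −0.79, −0.33 and 0.12. EPB41L3 stands at −9.76 and L3MBTL4 at 3.87 in red, and the other red points lie between −0.35 and −0.61.

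Genes of the membrane skeleton, partners of the family and other genes with a FERM domain were taken as 4 lists of 86 genes, of which 73 were tested. In 6CD2m against WT cells on Tubastatin A 11 of 73 were called (15.1%, beside 11.8% of all genes), 4 higher and 7 lower. In the 8CDm comparison with WT cells 11 were called as well, 7 higher and 4 lower, beside 11% of all genes. In 6CD2m against 6CD1m cells 12 were called (5 higher, 7 lower), beside 13.2% of all genes, and 7 with the replicate block. In 6CD2m against 8CDm cells 9 were called (4 higher, 5 lower), beside 9.96% of all genes.

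edgeR called 0 of 73 in 6CD1m against WT cells (0.793% of all genes), with 19 at an unadjusted p under 0.05 (32% of all genes) and 2 by DESeq2 (3.15%). It also called 0 between the WT groups (0.42% of all genes), with 33 at an unadjusted p under 0.05 (30%) and 6 by DESeq2 (3.61%). The median log2 difference of the 73 genes was −0.07 in 6CD2m and 0.13 in 8CDm cells against their WT groups, beside −0.01 and −0.04 over all genes.

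Of the spectrin and actin skeleton, 21 of 24 genes were tested. In 6CD2m against WT cells on Tubastatin A 4 were called (19%, beside 11.8% of all genes), 2 higher and 2 lower. None was called in 6CD1m against WT cells (0.793% of all genes) or between the WT groups (0.42%). SPTBN1, the main nonerythroid beta spectrin, had 332 to 372 CPM in 6CD2m cells and 539 to 580 CPM in WT cells on Tubastatin A. It fell by 0.65 on the log2 scale (edgeR adjusted p = 6.8e-05), and in 8CDm against WT cells on PCI-34051 it fell by 0.73 (edgeR adjusted p = 3.3e-05). Its partner SPTAN1, the nonerythroid alpha spectrin, was at 443 ± 23.6 CPM in 6CD2m and 412 ± 8.27 CPM in WT cells on Tubastatin A and was not called in any of the 6 comparisons. SPTB, the erythroid beta spectrin, moved the other way in 6CD2m cells, with 9.17 ± 0.455 CPM against 3.47 ± 0.631 CPM in WT cells on Tubastatin A (log2 difference 1.40, edgeR adjusted p = 0.00036).

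TPM1, a tropomyosin, was also higher in 6CD2m than in WT cells on Tubastatin A, by 0.56, and DMTN, the actin bundler dematin, was lower by 1.87. SPTBN1 (−0.64) and ACTB (−0.65), which encodes beta actin, were the 2 genes of this list called in 6CD2m against 6CD1m cells. These were 9.52% of the list, beside 13.2% of all genes. With the replicate block ACTB had an adjusted p of 0.0023 and was not called. SPTB was the 1 gene called between 6CD2m and 8CDm cells (4.76%, beside 9.96% of all genes), at 9.17 against 1.77 CPM. In 8CDm against WT cells SPTBN1 was the 1 gene called (4.76%, beside 11% of all genes).

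Of the membrane partners, 16 of 24 were tested. In 6CD2m against WT cells 3 were called (18.8%, beside 11.8% of all genes), and in 8CDm against WT cells 6 (37.5%, beside 11%). In 6CD2m against 6CD1m cells 4 were called (25%, beside 13.2%), and in 6CD2m against 8CDm cells 3 (18.8%, beside 9.96%). None was called in 6CD1m against WT cells (0.793% of all genes) or between the WT groups (0.42%). The counts include genes that the naming rule leaves out. GYPC, the red cell partner of EPB41, was not among those tested, with a mean of 0 in 4 groups and 0.0211 CPM in WT cells on PCI-34051. CADM1, an adhesion molecule that binds EPB41L3, was at 122 ± 15.1 CPM in 6CD2m cells and 82.3 ± 8.81 CPM in WT cells on Tubastatin A, which did not pass (log2 difference 0.57, edgeR adjusted p = 0.027). Against 6CD1m cells (61.0 ± 12.5 CPM) it was higher by 1.00 (edgeR adjusted p = 0.00067), a call that was lost with the replicate block (adjusted p = 0.0024).

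INADL and MPP5 encode PATJ and PALS1, scaffolds of the Crumbs polarity complex, which EPB41L5 also binds. INADL was at 35.3 ± 1.83 CPM in 6CD2m and 36.4 ± 1.65 CPM in 8CDm cells, against 21.0 ± 1.32 and 15.9 ± 1.08 CPM in their WT groups. The log2 differences were 0.75 (edgeR adjusted p = 2e-05) and 1.19 (edgeR adjusted p = 3.2e-07). MPP5 was at 80.6 ± 1.64 CPM in 8CDm and 27.7 ± 6.32 CPM in WT cells on PCI-34051 (log2 difference 1.54, edgeR adjusted p = 1.2e-05). In 6CD2m cells it was at 48.1 ± 3.58 CPM, against 35.7 ± 6.25 CPM in WT cells on Tubastatin A, and it was not called there.

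CNTN1, an axonal adhesion molecule, was higher in 8CDm than in WT cells on PCI-34051 by 2.95, and CNTNAP1 was lower by 0.50. ITGB8, an integrin chain that binds EPB41L3, was lower in 6CD2m cells, with 3.37 ± 0.808 CPM against 9.16 ± 2.25 CPM in WT cells on Tubastatin A and 12.8 ± 0.582 CPM in 8CDm cells. SDC2, a syndecan, was higher in 6CD2m cells than in 6CD1m cells by 1.06 and than in 8CDm cells by 1.12. MPP1 was higher in 6CD2m than in 8CDm cells by 1.08.

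All 16 cytoplasmic and nuclear partners were tested. In 6CD2m against WT cells 1 was called (6.25%, beside 11.8% of all genes), and in 8CDm against WT cells 1 (6.25%, beside 11%). In 6CD2m against 6CD1m cells 2 were called (12.5%, beside 13.2%), and in 6CD2m against 8CDm cells 1 (6.25%, beside 9.96%). None was called in 6CD1m against WT cells (0.793% of all genes) or between the WT groups (0.42%). PRMT5, an arginine methyltransferase, had group means between 101 and 125 CPM and was not called in any comparison. CENPJ, a centriole protein gene, was lower in 6CD2m cells (18.5 ± 0.667 CPM) than in WT cells on Tubastatin A (31.3 ± 2.17 CPM) and 6CD1m cells (30.2 ± 1.00 CPM). PRMT3, a methyltransferase that binds EPB41L3, was higher in 6CD2m than in 6CD1m cells by 0.70. With the replicate block that adjusted p was 0.0017 and the call was lost. CALM3, a calmodulin gene, was lower in 8CDm cells than in WT cells on PCI-34051 by 0.49 and than in 6CD2m cells by 0.53.

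Of the other FERM proteins, 20 of 22 were tested. NF2, whose protein merlin is a tumor suppressor, was at 353 to 443 CPM by group mean and was not called in any comparison. In 6CD2m against WT cells on Tubastatin A 3 were called (15%, beside 11.8% of all genes). All 3 were lower: FRMD3 by 1.17, TLN2, a talin, by 1.01, and FARP1 by 0.78. In 6CD2m against 6CD1m cells 4 were called, all lower (20%, beside 13.2% of all genes). The same 3 were among them, and the other called gene falls outside the rule for naming genes. With the replicate block FRMD3, at an edgeR adjusted p of 0.001, was no longer below the threshold there.

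In 8CDm against WT cells on PCI-34051, 3 of the other FERM genes were called (15%, beside 11% of all genes). FRMD5 (109 against 46.2 CPM) and the tyrosine phosphatase PTPN14 (1404 against 742 CPM) were higher, by 1.23 and 0.92 on the log2 scale. FARP1 was lower by 0.49. In 6CD2m against 8CDm cells 4 were called, all lower (20%, beside 9.96% of all genes). PTPN14, FRMD5 and FARP2 were lower by 1.19, 0.81 and 0.49, and the other called gene falls outside the naming rule. None was called in 6CD1m against WT cells (0.793% of all genes) or between the WT groups (0.42%).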

How the data were processed

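RNA-seq was analysed in 15 libraries of HT1080 cells, with rRNA-depleted total RNA and 3 replicates in each of 5 groups taken from the sample labels. The authors deposited 1 table of expected counts (RSEM estimates for each gene, not normalized) for 60675 genes. The submitters' processing notes name Trimmomatic 0.39, Bowtie2 2.4.5, RSEM 1.3.3, DESeq2 1.38.2 and GRCh38. The annotation and the use of strand are not given in the sources used here. All values were rounded, since 21.8% of those above 0 were fractional.

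The model was fitted with edgeR 4.0.16 on limma 3.58.1 in R 4.3.3. Genes were filtered with filterByExpr, which kept 19535, and scaled by TMM. The 15 libraries entered 1 quasi-likelihood model with a mean for each group, tested at a false discovery rate of 0.001. The biological coefficient of variation was 16.4%. Positions, exon lengths and GC content came from GENCODE 29 (57055 genes matched by Ensembl identifier), and promoter windows from RefSeq (GRCh38.p14), which held windows for 6 of the 7 members. The fit was run on counts simulated from its own gene means and dispersions. These held no GC bias, chromosome shift or pairing, so that run cannot show how the fit handles them. Correlations used log2 CPM with a prior count of 2.

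The members and the lists of partner genes were chosen with earlier results of these data known. The genes named are the 7 members, the coding genes that reach within 2 Mb of either end of EPB41L3, SPTAN1, SPTBN1, GYPC, CADM1, PRMT5 and NF2. They also include up to 3 called genes per list, direction and comparison with the largest log2 change and a mean log2 CPM of at least 1, the 5 genes most correlated with EPB41L3, and the 2 most correlated with each other member above 10 CPM in a group. Genes named as a member with a suffix were included as well. These were EPB41L4A-AS1 and EPB41L4A-AS2, of which EPB41L4A-AS2 had at most 2 counts in a library and was not tested. MPP5 values in 6CD2m cells were added after they were seen.

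Replicate numbers in the labels paired the libraries in 2 comparisons, where each same-numbered pair deviated together. The correlations of the deviations were 0.400, 0.110 and 0.174 between 6CD2m and 6CD1m cells and 0.758, 0.453 and 0.425 between the WT groups. The labels do not say whether replicates are separate cultures, so p-values measure the spread between these samples. The alternatives were DESeq2 1.42.0, upper-quartile scaling, other filters on low counts, the 6 libraries compared alone, the replicate block, GC offsets, a false discovery rate of 0.05, and leaving out each replicate.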

Additional observations from a re-analysis of the deposited data

Results flagged for a closer look

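The level of EPB41L5 differed between the KDAC6 mutant lines under the same treatment. Relative to WT cells on Tubastatin A, EPB41L5 was at a log2 difference of 1.02 in 6CD2m cells and −0.38 in 6CD1m cells. Neither passed the threshold (edgeR adjusted p = 0.0016 and 0.25). The tested difference between the lines was 1.40 (edgeR adjusted p = 0.00016). With GC offsets these values were 1.03, −0.13 and 1.16. All 3 6CD2m libraries lay above all 3 6CD1m libraries. Both lines are compared with the same WT libraries.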

How the results depend on the processing

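For the 6 members tested, 454 of 504 log2 differences under other settings kept their direction and their side of the threshold. Another 30 moved past it, 2 no longer passed it and 18 changed sign, and the cause was not tested unless the setting itself removed libraries or genes. Percentages in brackets are the shares of all genes called under the same setting. Members called in 6CD2m against WT cells (0) became 2 with upper-quartile scaling (12.5%) and 1 with no filter (7.9%). They became 2 with at least 10 counts in every library (13.6%), 2 with GC offsets (16.5%) and 2 with DESeq2 (18.6%). There were 4 at 0.05 (32.8%) and 0 to 1 when each replicate was left out (7.17 to 8.1%). In 8CDm against WT cells (1) they became 2 with upper-quartile scaling (12.5%) and 2 with at least 10 counts (14.6%). There were 2 with GC offsets (11.8%), 2 with GC offsets and the replicate block (9.03%) and 0 with only the 6 libraries compared (4.69%). There were 4 with DESeq2 (19.7%), 4 at 0.05 (36.1%) and 1 to 2 when each replicate was left out (5.56 to 12.8%). In 6CD2m against 6CD1m cells (1) they became 2 with upper-quartile scaling (14.5%) and 2 with at least 10 counts (16.7%). There were 3 with GC offsets (17.4%), 2 with GC offsets and the block (13.5%) and 3 with DESeq2 (21.9%). At 0.05 there were 4 (40.3%), with 0 to 1 when each replicate was left out (7.08 to 11.5%). In 6CD2m against 8CDm cells (1) they became 3 with the 6 libraries (23.2%), 3 with DESeq2 (15.9%) and 3 at 0.05 (26.5%). Between the WT groups (0) they became 1 with DESeq2 (3.61%) and 2 at 0.05 (9.48%).

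Of the partner lists, calls in 6CD2m against WT cells (11) became 18 with DESeq2 (18.6% of all genes) and 29 at 0.05 (32.8%). They were 8 to 10 when each replicate was left out (7.17 to 8.1%), and the percentages below are likewise shares of all genes. In 6CD1m against WT cells (0) they became 1 with GC offsets (1.55%), 2 with DESeq2 (3.15%) and 6 at 0.05 (9.4%). In 8CDm against WT cells (11) they became 4 with the 6 libraries (4.69%), 22 with DESeq2 (19.7%) and 32 at 0.05 (36.1%). They were 5 to 12 when each replicate was left out (5.56 to 12.8%). In 6CD2m against 6CD1m cells (12) they became 19 with upper-quartile scaling (14.5%), 19 with no filter (10%) and 7 with the replicate block (8.82%). There were 20 with GC offsets (17.4%), 2 with the 6 libraries (6.07%), 24 with DESeq2 (21.9%) and 36 at 0.05 (40.3%). They were 3 to 13 when each replicate was left out (7.08 to 11.5%), the 3 without 6CD1m replicate 2. In 6CD2m against 8CDm cells (9) they became 19 with GC offsets (14.2%), 27 with the 6 libraries (23.2%) and 20 with DESeq2 (15.9%). There were 28 at 0.05 (26.5%), with 6 to 7 when each replicate was left out (6.24 to 6.5%). Between the WT groups (0) they became 1 with upper-quartile scaling (0.584%), 4 with no filter (0.898%) and 2 with GC offsets (1.26%). There were 6 with DESeq2 (3.61%), 11 at 0.05 (9.48%) and 0 to 2 when each replicate was left out (0.124 to 0.728%).

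The signs that changed were of small differences. In 6CD1m against WT cells EPB41 became 0.010 with upper-quartile scaling, 0.094 with GC offsets and 0.094 with GC offsets and the block. EPB41L2 became 0.077, 0.16 and 0.16 with these, 0.030 with at least 10 counts and 0.0085 with the 6 libraries. When each replicate was left out, EPB41L2 ran from −0.092 to 0.0044, EPB41L4A from −0.068 to 0.34 and EPB41L4B from −0.088 to 0.20 in that comparison, EPB41L4A from −0.019 to 0.51 in 6CD2m against 6CD1m cells, and between the WT groups EPB41 from −0.058 to 0.052 and EPB41L5 from −0.0012 to 0.41. Upper-quartile scaling shifted the median of all genes by 0.12 in 6CD1m against WT cells. Over 13946 protein-coding genes, the Spearman correlation of GC content with log2 difference was −0.458 in 8CDm and 0.393 in 6CD1m against their WT groups. It was −0.102 in 6CD2m against WT cells, −0.336 in 6CD2m against 6CD1m cells and −0.503 between the WT groups. In 6CD2m against 8CDm cells it was 0.0308.

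Calls over all genes in 6CD1m against WT cells ran from 9 to 616 and between the WT groups from 1 to 705 over the other alternatives. In the other 4 comparisons they ran from 829 to 4271. A minimum of 10 counts in every library left EPB41L3 untested, and its other log2 differences kept their direction. The block alone changed no call of a family member. Added to GC offsets, it ended the calls of EPB41L2 (adjusted p = 0.0013) and EPB41L5 (0.0013) in 6CD2m against WT cells, which left 0 of 2, and of EPB41L1 (0.0013) in 6CD2m against 6CD1m cells. Outside the 2 paired comparisons same-numbered libraries did not all deviate together, with correlations from −0.683 to 0.291. Depth limits the EPB41L3 level in 6CD2m cells, which rests on 13 counts.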
